A study of Homo sapiens with 2 samples.

Results

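The microRNAs described here are encoded in genes of lipid metabolism or are known regulators of it. They comprise both arms of miR-33a and miR-33b, miR-103a-3p, miR-107, both arms of miR-378a, miR-122-5p and miR-185-5p. They were selected by name, and all 10 were found among the 2656 mature microRNAs of the count table. The table came from small RNA sequencing of MDA-MB-231 cells, a long-established line of human triple-negative breast cancer, comprising 1 library from cells carrying an shRNA against ELOVL5 (shELOVL5) and 1 from cells carrying a control shRNA (shLuc). Both kinds of cell were transduced and grown in the same medium with fetal bovine serum. The labels used here do not say how many clones or cultures stand behind each library, and the extraction protocol in the labels speaks of frozen tumors, although the samples are labelled as the cell line. ELOVL5 elongates polyunsaturated fatty acids. Its mRNA was not measured, so the knockdown itself could not be checked.

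A microRNA is cut from a hairpin in a longer transcript, often the intron of a protein-coding gene, and either arm of the hairpin (5p or 3p) can be loaded onto an Argonaute protein. It then represses mRNAs that pair with its seed, bases 2 to 8. miR-33a and miR-33b lie in the genes of the sterol regulatory element binding proteins, SREBF2 and SREBF1, which switch on cholesterol and fatty acid synthesis, and miR-33 is known for repressing the cholesterol exporter ABCA1. miR-103 and miR-107 lie in pantothenate kinase genes, whose enzymes start coenzyme A synthesis, and are known as regulators of insulin sensitivity. miR-378a lies in PPARGC1B, a coactivator of mitochondrial and lipid genes, and is known for tuning mitochondrial fatty acid use. miR-122 is the main microRNA of the liver, and miR-185 is a known repressor of SREBF genes.

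The mature sequences are shown because several of these microRNAs are close enough in sequence to bear on what their counts mean. They were taken from RefSeq (GRCh38.p14), which held all 10, and are written 5′ to 3′ with the seed in capitals.
hsa-miR-103a-3p: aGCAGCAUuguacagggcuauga
hsa-miR-107: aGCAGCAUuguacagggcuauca
hsa-miR-378a-3p: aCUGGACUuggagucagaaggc
hsa-miR-378a-5p: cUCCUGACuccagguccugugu
hsa-miR-185-5p: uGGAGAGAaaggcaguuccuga
hsa-miR-122-5p: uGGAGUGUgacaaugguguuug
hsa-miR-33a-5p: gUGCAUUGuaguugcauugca
hsa-miR-33b-5p: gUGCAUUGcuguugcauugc
hsa-miR-33a-3p: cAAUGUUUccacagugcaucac
hsa-miR-33b-3p: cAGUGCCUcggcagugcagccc
The 10 sequences carry 8 seeds. hsa-miR-103a-3p and hsa-miR-107 share a seed and differ at 1 of 23 bases, G22C, counted from the 5′ end with the base of hsa-miR-103a-3p first. hsa-miR-33a-5p and hsa-miR-33b-5p also share a seed and differ at 2 of the 20 bases compared, U9C and A10U, while their 3p arms have different seeds and differ at 7 of 22 bases. The seeds of hsa-miR-185-5p and hsa-miR-122-5p both begin with GGAG, but the whole sequences are identical at only 10 of 22 positions.

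All of the hairpins from lipid genes were intronic and on the strand of their host gene in GENCODE release 29 (GRCh38). MIR33A was at chromosome 22, 41900944 to 41901012, in SREBF2, and MIR33B at chromosome 17, 17813836 to 17813931, in SREBF1. hsa-miR-103a-3p has a pair of hairpins, MIR103A1 at chromosome 5, 168560896 to 168560973, in PANK3, and MIR103A2 at chromosome 20, 3917494 to 3917571, in PANK2. MIR107 was at chromosome 10, 89592747 to 89592827, in PANK1. MIR378A was at chromosome 5, 149732825 to 149732890, in PPARGC1B. MIR185 was at chromosome 22, 20033139 to 20033220, in an intron of TANGO2, and MIR122 at chromosome 18, 58451074 to 58451158, in an exon of the long noncoding RNA gene MIR122HG. The host mRNAs were not measured.

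The shELOVL5 library held 6811811 microRNA counts and the shLuc library 7109272. Values are given as raw counts and as counts per 1000000 counts (CPM) after TMM scaling, and every ratio is shELOVL5 over shLuc. With 1 library per condition no difference could be tested. The 95% intervals cover counting error only and say nothing about variation between cultures. A microRNA with a mean of at least 50 CPM and at least 100 counts over both libraries is called expressed here, which held for 191. All 5 microRNAs listed as typical of mesenchymal breast cancer lines were expressed (hsa-miR-221-3p, hsa-miR-100-5p, hsa-miR-125b-5p, hsa-miR-222-3p and hsa-miR-21-5p), with 3108446 counts in shELOVL5 and 3237180 in shLuc. Of these 5, 2 had an interval above 1 and 3 below, against 31.9% and 41.9% of all 191. The 6 epithelial markers had 2671 and 2091 counts, and 3 of them were expressed. hsa-miR-200a-3p had 471 and 281 counts (ratio 1.71), hsa-miR-200b-3p 1626 and 1265 (1.31) and hsa-miR-200c-3p 450 and 467 (0.981). Of the others, hsa-miR-429 had 114 and 73 counts (1.59), hsa-miR-141-3p 7 and 3 and hsa-miR-205-5p 3 and 2. The 7 blood markers had 2282 and 2798 counts together, most of them from hsa-miR-486-5p (2146 and 2788). hsa-miR-451a, the defining marker of red cells, had 6 and 2 counts, and hsa-miR-144-3p and hsa-miR-223-3p had 0 in both. hsa-miR-142-5p, a marker of white cells, had 84 and 6 counts (ratio 14.3, 6.28 to 39.9). Its other arm, hsa-miR-142-3p, had 45 and 2 (22.9, 5.98 to 195), so these went the other way from hsa-miR-486-5p. The part of the epithelial and blood markers in the differences below was not tested.

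The lipid-gene microRNAs ranged from hsa-miR-103a-3p, among the most abundant microRNAs of these cells, to hsa-miR-33b-5p, with no count. Together they took 1.41% of all counts in shELOVL5 (exact binomial interval 1.40 to 1.42%) and 1.21% in shLuc (1.20 to 1.22%). hsa-miR-103a-3p alone made up 72.6% of the members' counts in shELOVL5 and 72.3% in shLuc. The expressed members were hsa-miR-103a-3p, hsa-miR-378a-3p, hsa-miR-107 and hsa-miR-185-5p. Below the limit lay, in order, hsa-miR-378a-5p, hsa-miR-33b-3p, hsa-miR-122-5p, hsa-miR-33a-3p, hsa-miR-33a-5p and hsa-miR-33b-5p. This is an order of counts, and equal capture of different sequences was not tested. The order was the same in both libraries. Neighbours in it differed beyond counting error in each library, with 1 exception among the pairs with counts. hsa-miR-33a-3p had 1.71 times the counts of hsa-miR-33a-5p in shELOVL5, with an interval of 0.622 to 5.14.

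**Figure D1:**
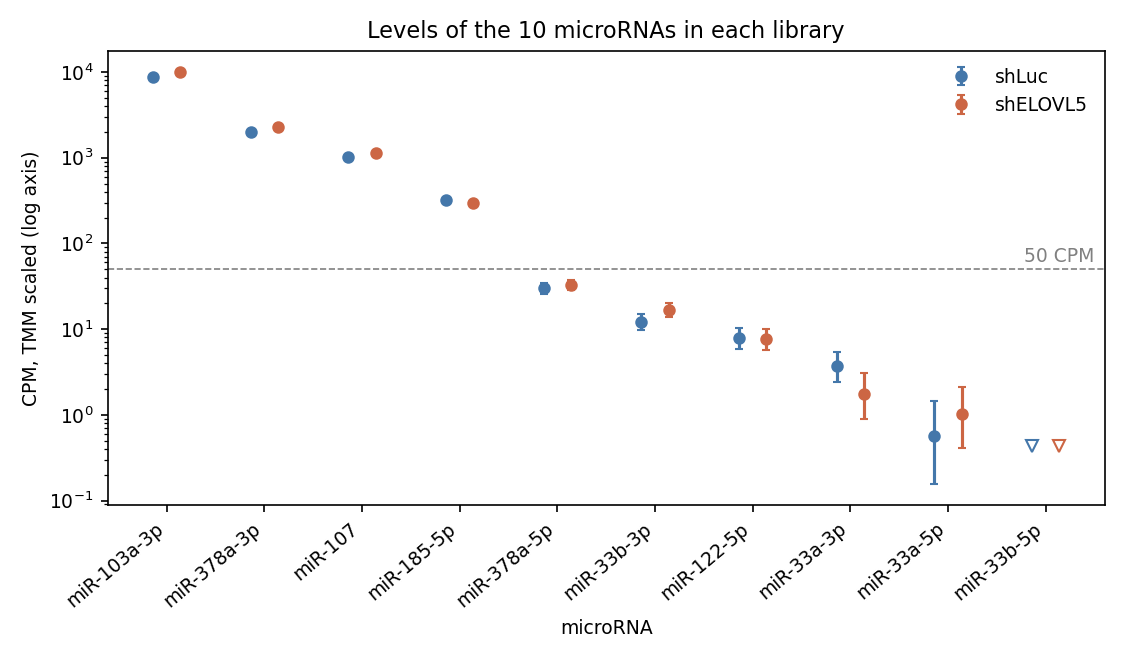
Level of each of the 10 microRNAs in CPM on a log axis, with blue points for shLuc, orange points for shELOVL5, and exact Poisson 95% intervals; open triangles mark the level allowed by a count of 0, and the dashed line marks 50 CPM. Of the 10 microRNAs, 4 stand above 50 CPM in both libraries, and the order of the levels is the same in both.

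None of the 4 expressed members differed by 2-fold or by 1.5-fold. Over all 191 expressed microRNAs, 1.57% lay 2-fold or more above shLuc and 0% 2-fold or more below, and at 1.5-fold the shares were 3.14% and 0.524%. hsa-miR-103a-3p, hsa-miR-107 and hsa-miR-378a-3p had counting intervals above 1, and hsa-miR-185-5p had one below 1. At this depth that is common, since 31.9% of the expressed microRNAs had an interval above 1 and 41.9% one below. The median log2 ratio of the 4 was 0.18, beside -0.03 over all 191, whose quartiles were -0.18 and 0.17. Counted from the highest ratio of the 191, hsa-miR-378a-3p was at place 40, hsa-miR-103a-3p at 44, hsa-miR-107 at 51 and hsa-miR-185-5p at 126.

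**Figure D2:**
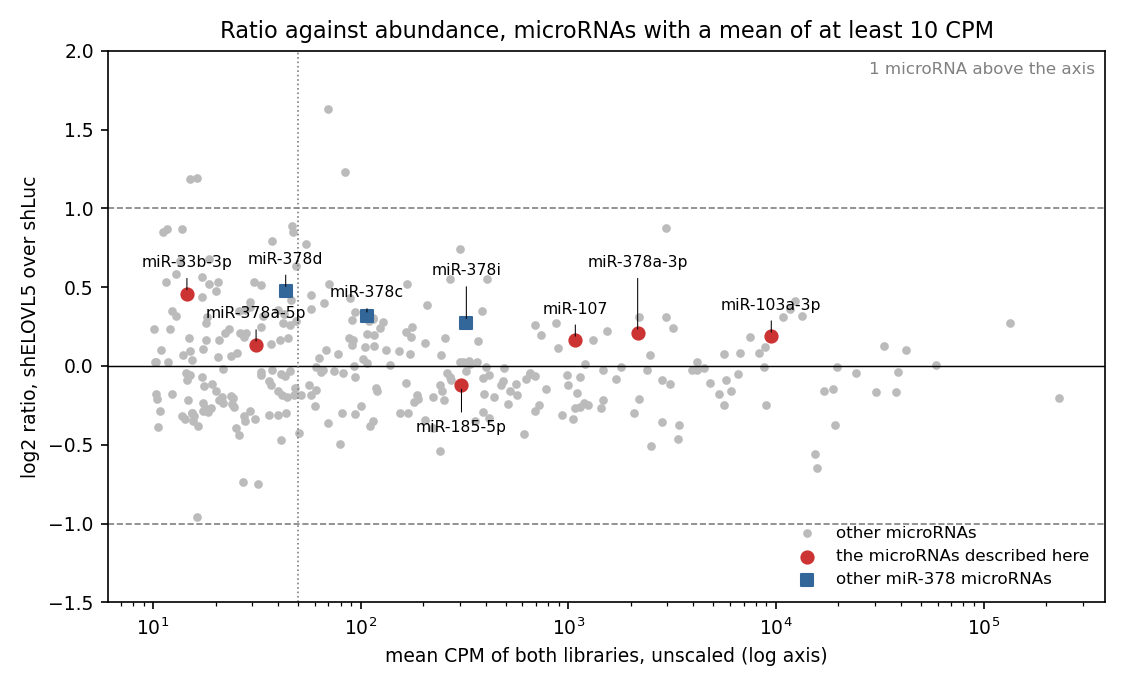
Log2 ratio of CPM (shELOVL5 over shLuc) against the mean CPM of both libraries on a log axis, for microRNAs with a mean of at least 10 CPM; red circles are the microRNAs described here, blue squares are other miR-378 microRNAs, grey points are all others, dashed lines mark 2-fold and the dotted line 50 CPM. The marked microRNAs all lie within 2-fold, and hsa-miR-185-5p is the only red point below 0.

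The microRNAs of the pantothenate kinase genes were slightly higher in shELOVL5, by a similar factor for both. hsa-miR-103a-3p had 69697 counts in shELOVL5 and 62275 in shLuc, or 10105 and 8869 CPM. Its ratio was 1.14 (1.13 to 1.15). hsa-miR-107 had 7869 and 7158 counts, or 1141 and 1019 CPM, and a ratio of 1.12 (1.08 to 1.16). The ratios of the pair differed by a factor of 1.02 with an interval of 0.984 to 1.05, so a difference between them was not detectable at this depth.

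hsa-miR-103a-3p had 8.86 times the counts of hsa-miR-107 in shELOVL5 (8.65 to 9.07) and 8.70 times in shLuc (8.49 to 8.92). Put as a share, hsa-miR-107 made up 10.1% of the counts of the pair in shELOVL5 (9.93 to 10.4%) and 10.3% in shLuc (10.1 to 10.5%). The share needs no scaling between the libraries, and its intervals overlapped. As shown by the sequences above, the pair differs only at base 22, and the sources used here do not say how reads ending before that base were assigned. Summed, the pair had 77566 and 69433 counts and a ratio of 1.14 (1.13 to 1.15), and RefSeq held no other measured microRNA with their seed.

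The 2 hairpins of hsa-miR-103a-3p have the same mature sequence, and the table listed them with nearly the same counts. The MIR103A1 line had 69144 counts in shELOVL5 and 61817 in shLuc, and the MIR103A2 line 69697 and 62275. The ratios from the lines were both 1.14. The lines differed by 0.800% and 0.741% of the lower count, so these values do not separate the PANK3 from the PANK2 hairpin.

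The opposite arms of these hairpins were nearly absent. hsa-miR-103a-2-5p, from the PANK2 hairpin, had 6 counts in shELOVL5 and 19 in shLuc, which is 3.11-fold lower in shELOVL5 with an interval of 1.19 to 9.52. Of the 1024 microRNAs with at least 1 count in each library, 7.52% were 2-fold or more lower and 10.4% had an interval below 1. hsa-miR-103a-1-5p, from the PANK3 hairpin, had 1 count in each library. These 5p arms differ by G1A alone. hsa-miR-103b, encoded on the opposite strand of both loci, had 0 counts in both libraries. A count of 0 allows 3 counts, which is 0.435 CPM in the shELOVL5 library and 0.427 CPM in the shLuc library.

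The seed of miR-16 overlaps that of miR-103 when shifted by a base, and miR-16 and its relatives are known regulators of the cell cycle. The overlap was not examined for each relative, and it need not hold for all of them. Of 8 in the list, 4 were expressed, 1 of which had an interval above 1 and 1 below. Over all 191 expressed microRNAs, the shares were 31.9% and 41.9%. For the 4 relatives, the median log2 ratio was 0.05. The most abundant, hsa-miR-16-5p, had 11386 and 9951 counts and a ratio of 1.16 (1.13 to 1.20). hsa-miR-503-5p had 6670 and 7055 counts and a ratio of 0.962 (0.931 to 0.995), while hsa-miR-15b-5p stood at 0.993 (0.946 to 1.04) and hsa-miR-424-5p at 1.09 (0.979 to 1.21).

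The PPARGC1B hairpin gave almost only its 3p arm, and that arm was slightly higher in shELOVL5. hsa-miR-378a-3p had 15939 counts in shELOVL5 and 14049 in shLuc, or 2311 and 2001 CPM, and a ratio of 1.15 (1.13 to 1.18). hsa-miR-378a-5p had 226 and 210 counts, or 32.8 and 29.9 CPM. Its log2 ratio was 0.13 with an interval of -0.15 to 0.41, which includes both 0 and the log2 ratio of the 3p arm, 0.21. The 5p arm took 1.40% of the hairpin's counts in shELOVL5 (1.22 to 1.59%) and 1.47% in shLuc (1.28 to 1.68%). The arm balance therefore differed by less than counting error.

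hsa-miR-378a-3p belongs to a large family of look-alike sequences. The most abundant relatives with a RefSeq sequence are shown with the seed of each in capitals.
hsa-miR-378i: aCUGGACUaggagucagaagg
hsa-miR-378c: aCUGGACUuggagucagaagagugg
hsa-miR-378f: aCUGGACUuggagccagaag
hsa-miR-378g: aCUGGGCUuggagucagaag
hsa-miR-422a: aCUGGACUuagggucagaaggc
Relative to hsa-miR-378a-3p, hsa-miR-378i carries U9A and hsa-miR-378f U14C. hsa-miR-378c is identical for its first 20 bases and then carries G21A and C22G with a longer 3′ end. hsa-miR-378g carries A6G inside the seed, and hsa-miR-422a carries G10A and A12G. A read that stops at base 20 therefore fits hsa-miR-378a-3p and hsa-miR-378c equally, and the sources used here do not state how such reads were treated.

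The abundant relatives were higher in shELOVL5, as hsa-miR-378a-3p was. hsa-miR-378i had 2435 counts in shELOVL5 and 2049 in shLuc, or 353 and 292 CPM, and a ratio of 1.21 (1.14 to 1.28). hsa-miR-378c had 819 and 670 counts and a ratio of 1.24 (1.12 to 1.38). hsa-miR-378d, which lay just under the expression limit, had 349 and 255 counts and a ratio of 1.39 (1.18 to 1.64). The 3 intervals lay above 1 and none reached 2. Of the 313 microRNAs with a mean of at least 10 CPM, 30% had an interval above 1. Because these 3 relatives may share reads with hsa-miR-378a-3p, they are not separate evidence of its direction.

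The rarer relatives went both ways within wide intervals. hsa-miR-378f had 76 and 61 counts (ratio 1.27, 0.894 to 1.81), hsa-miR-378g 39 and 47 (0.845, 0.538 to 1.32), and hsa-miR-422a 31 and 34 (0.928, 0.552 to 1.56). hsa-miR-378e had 8 and 17 counts and was 2.09-fold lower, a ratio of 0.479 (0.179 to 1.17). hsa-miR-378b had 6 and 5 counts, hsa-miR-378h 6 and 4, and hsa-miR-378j 1 and 0. All of the intervals for these 6 microRNAs with a ratio included 1.

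hsa-miR-378a-3p made up 80.9% of the family's counts in shELOVL5 (80.3 to 81.4%) and 81.7% in shLuc (81.1 to 82.3%). hsa-miR-378i took 12.4% (11.9 to 12.8%) and 11.9% (11.4 to 12.4%). The composition was thus nearly the same in both libraries. In a direct comparison of ratios, hsa-miR-378d exceeded hsa-miR-378a-3p by a factor of 1.21 (1.02 to 1.43), whereas the factors for hsa-miR-378i, 1.05 (0.983 to 1.12), and hsa-miR-378c, 1.08 (0.969 to 1.20), had intervals that include 1. All 11 together had 19709 and 17191 counts and a ratio of 1.17 (1.14 to 1.19).

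**Figure D3:**
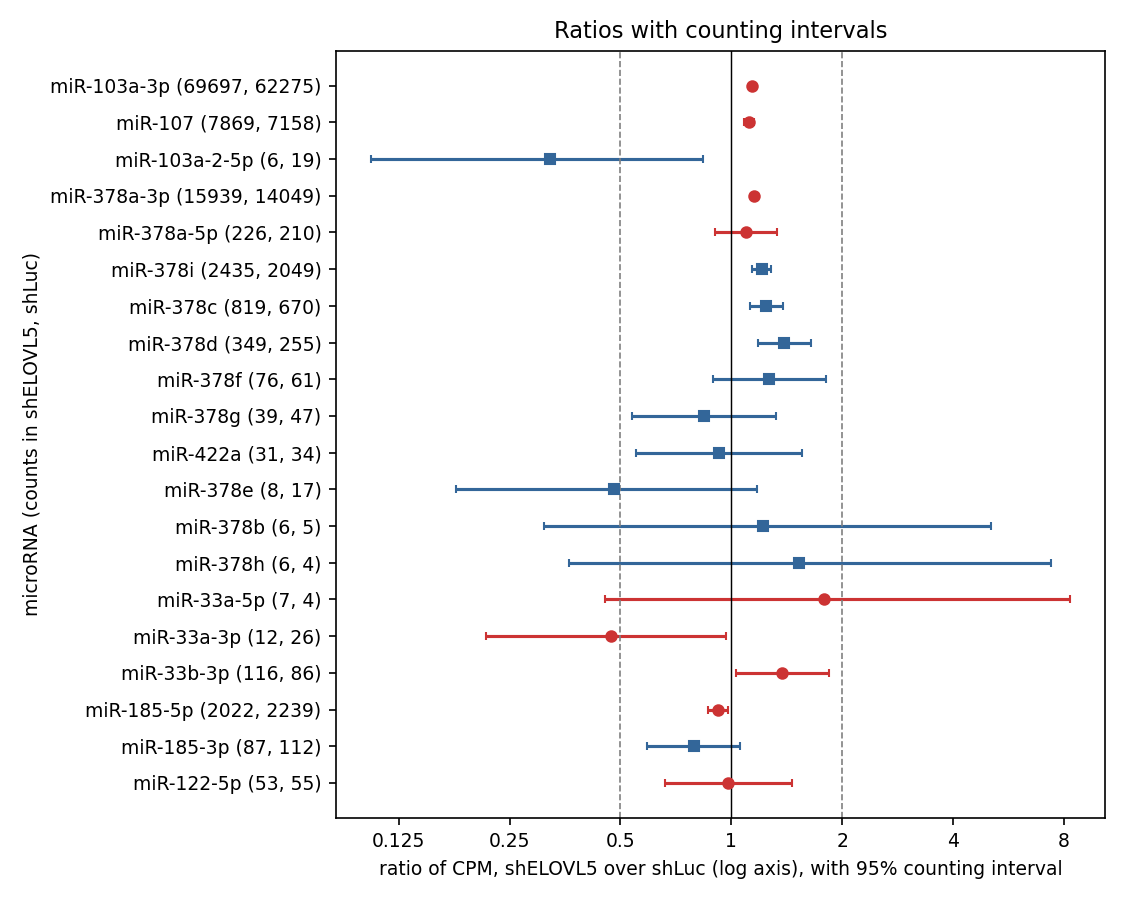
Ratio of CPM (shELOVL5 over shLuc, log axis) with 95% counting intervals for the microRNAs described here (red circles) and their other arms and relatives (blue squares), with the counts in shELOVL5 and shLuc beside each name; dashed lines mark 2-fold. hsa-miR-103a-3p, hsa-miR-107 and hsa-miR-378a-3p lie close to 1.1, and the ratios outside 2-fold belong to hsa-miR-33a-3p, hsa-miR-103a-2-5p and hsa-miR-378e, each with fewer than 30 counts per library.

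The SREBF hairpins had few counts, mostly from their 3p arms, and none of the arms met the limit to be called expressed. For miR-33a in shELOVL5 the excess of the 3p arm was within counting error (1.71 times the 5p counts, 0.622 to 5.14). hsa-miR-33a-5p, the arm that carries the known ABCA1-repressing seed, had 7 counts in shELOVL5 and 4 in shLuc, or 1.01 and 0.570 CPM. hsa-miR-33b-5p, with the same seed, had 0 in both. The ratio of hsa-miR-33a-5p was 1.78 with an interval of 0.453 to 8.30, so no difference was detectable at this depth. Among microRNAs with at least 1 count in each library, where counts are mostly low, 19.9% were 1.5-fold or more higher and 11.7% were 2-fold or more higher.

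The 3p arms stood on opposite sides of 1. hsa-miR-33a-3p had 12 counts in shELOVL5 and 26 in shLuc, or 1.74 and 3.70 CPM, and was 2.13-fold lower in shELOVL5 (1.04 to 4.63). It was the only member past 2-fold, and with 5 CPM added to both values its log2 ratio went from -1.09 to -0.37, within 2-fold. Of the 1024 microRNAs with at least 1 count in each library, 16.1% were 1.5-fold or more lower, 7.52% were 2-fold or more lower and 10.4% had an interval below 1, while 12.3% had one above. hsa-miR-33b-3p had 116 and 86 counts, or 16.8 and 12.2 CPM, and a ratio of 1.37 (1.03 to 1.84), and of the 313 microRNAs with a mean of at least 10 CPM, 30% had an interval above 1 and 29.4% below. The ratios of hsa-miR-33b-3p and hsa-miR-33a-3p differed by a factor of 2.92 (1.33 to 6.71).

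Within the library, miR-33b made up 85.9% of the counts of all 4 miR-33 arms in shELOVL5 (78.9 to 91.3%) and 74.1% in shLuc (65.2 to 81.8%). The intervals overlapped, which by itself does not show equal shares, and the ratios of the 3p arms differed as given above. The 5p arm took 36.8% of the miR-33a counts in shELOVL5 (16.3 to 61.6%, 7 of 19 counts) and 13.3% in shLuc (3.76 to 30.7%, 4 of 30). For miR-33b it took 0 of 116 counts, which allows a share of up to 2.59%, and 0 of 86, which allows up to 3.49%. The 4 arms together had 135 and 116 counts and a ratio of 1.18 (0.918 to 1.53).

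The lipid regulators outside the SREBF, PANK and PPARGC1B genes differed little. hsa-miR-185-5p had 2022 counts in shELOVL5 and 2239 in shLuc, or 293 and 319 CPM, and was 1.09-fold lower in shELOVL5 (1.02 to 1.16). The upper limit of its log2 interval was -0.034. Total count scaling adds 0.036 to each log2 ratio, so under that scaling the interval includes no change. Its other arm, hsa-miR-185-3p, had 87 and 112 counts, which gave the ratio 0.791 (0.591 to 1.06). The 3p arm took 4.13% of the hairpin's counts in shELOVL5 (3.32 to 5.06%) and 4.76% in shLuc (3.94 to 5.70%), with overlapping intervals. The ratio of hsa-miR-103a-3p exceeded that of hsa-miR-185-5p by a factor of 1.24 (1.17 to 1.32), a comparison that scaling does not affect. hsa-miR-4306, which has the seed of hsa-miR-185-5p, had 0 counts in both libraries, as did hsa-miR-4644.

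hsa-miR-122-5p had 53 counts in shELOVL5 and 55 in shLuc, or 7.68 and 7.83 CPM, and its ratio was 0.981 (0.660 to 1.46). Its other arm, hsa-miR-122-3p, had 0 counts in both. Of the other liver markers, hsa-miR-885-5p had 2 and 0 counts, while hsa-miR-192-5p and hsa-miR-194-5p, which other epithelia also make, had 3219 and 3495 and 658 and 611. The MIR122 hairpin was thus seen only through a trace of its 5p arm, at a level that did not differ beyond counting error.

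**Figure D4:**
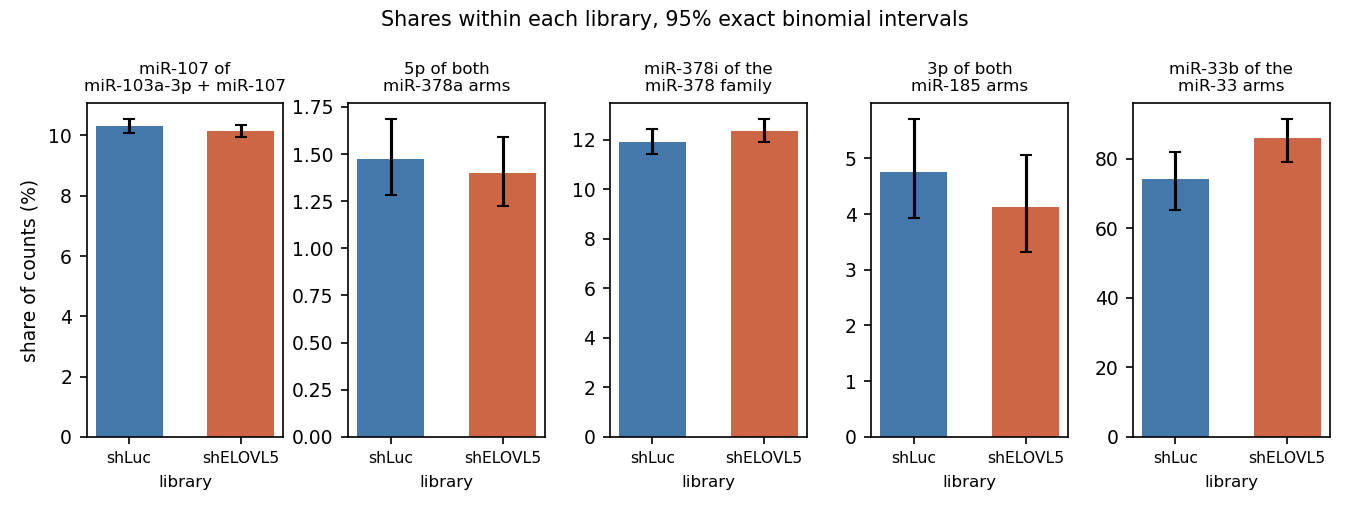
Share of counts in percent within each library (blue bars shLuc, orange bars shELOVL5) with 95% exact binomial intervals, for hsa-miR-107 among the miR-103a-3p and miR-107 counts, the 5p arm of miR-378a, hsa-miR-378i in the miR-378 family, the 3p arm of miR-185 and miR-33b among the miR-33 arms. The intervals of the libraries overlap in each of the 5 panels, which by itself does not show equal shares. The share of miR-33b, 85.9% in shELOVL5 against 74.1% in shLuc, shows the widest gap.

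Other microRNAs known as lipid regulators showed no common direction. Of 28 in the list, 15 were expressed, 6 with an interval above 1, 7 below and 2 including 1. Over all 191 expressed microRNAs, 31.9% had an interval above 1 and 41.9% one below. None of the 15 differed by 1.5-fold, against 3.14% higher and 0.524% lower over all 191. The median log2 ratio of the 15, -0.03, was the same as that over all 191. The most abundant was hsa-miR-26a-5p, with a ratio of 0.891 (0.885 to 0.896). hsa-miR-27b-3p came next (ratio 0.772, 0.766 to 0.778), and then hsa-miR-29a-3p, which also had the highest ratio of the 15, 1.28 (1.27 to 1.30). hsa-miR-19b-3p followed at 1.28 (1.11 to 1.48). The lowest ratios of the 15 were those of hsa-miR-183-5p at 0.703 (0.688 to 0.718) and hsa-miR-182-5p at 0.771 (0.757 to 0.785), which are made from the same cluster. hsa-miR-96-5p, also of that cluster, stood nearer to 1 at 0.921 (0.860 to 0.986). Below the expression limit, hsa-miR-206 was more than 2-fold higher (155 and 69 counts, ratio 2.29) and hsa-miR-1-3p more than 2-fold lower (14 and 80, 0.178). Of the 1024 microRNAs with at least 1 count in each library, 11.7% were 2-fold or more higher and 7.52% lower.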

How the data were processed

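The authors deposited 1 table of unnormalized read counts, 1 line for each precursor and mature microRNA. The submitters' processing notes list FastQC 0.11.9, cutadapt 2.10 and Bowtie 1.1.1. How reads were counted, on which microRNA release, and how those that fit several microRNAs were handled was not given in the sources used here. Where a microRNA was listed under several precursors, the highest line per library was kept. Counts were scaled to CPM with TMM factors (edgeR 4.0.16, R 4.3.3), 1.01 for shELOVL5 and 0.988 for shLuc. Intervals are exact at 95% and cover counting error only: Clopper-Pearson for shares and, through 1 library's share of both counts, for ratios; Poisson for levels; and the conditional interval of the odds ratio for a comparison of ratios (scipy 1.17.1). No unique molecular identifiers are described, so PCR copies may be counted more than once. No test was possible with 1 library per condition. The ratio intervals and the 2-fold rule were tested on simulated counts that held counting error only.

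Seeds were compared over the 2367 measured microRNAs with 1 RefSeq mature sequence. hsa-miR-378d, hsa-miR-378e and hsa-miR-4644 were not matched, and hsa-miR-3591 was not analysed here. The members and lists were chosen with earlier results of these data known. Named microRNAs were the members, their other arms, the miR-378 family and miR-185 seed relatives with at least 10 counts (those below are given by count for completeness), the 3 most abundant and the 2 highest and 2 lowest in ratio of the expressed microRNAs in each other list (the marker lists are given with further members), and the 3 nearest in level to each expressed member. Other settings tried were size factors of DESeq2 1.42.0, total count scaling, the sum or lowest of the precursor lines, 5 CPM added, and other limits on abundance.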

Additional observations from a re-analysis of the deposited data

How the results depend on the processing

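No paired analysis was possible because shELOVL5 and shLuc had 1 library each, which also means that none could be left out. Of 133 recomputed values, 115 stayed within the counting interval or the count's tolerance, 18 moved and none of the called ratios changed sign. Total count scaling adds 0.036 to every log2 ratio, and DESeq2 size factors, which were 1 for both libraries and so amount to unscaled counts, lower it by 0.026 (a shift of -0.026). With total count scaling the log2 ratio was 0.22 for hsa-miR-103a-3p, 0.24 for hsa-miR-378a-3p, 0.22 for hsa-miR-103a-3p plus hsa-miR-107, 0.26 for the miR-378 family and 0.21 for the median of the expressed members. For hsa-miR-185-5p it was -0.085, and with that scaling its interval no longer lay wholly on the lower side. With DESeq2 size factors the log2 ratio was 0.16 for hsa-miR-103a-3p and 0.16 for the pair. With the sum over precursor lines, which counts hsa-miR-103a-3p once for each hairpin, hsa-miR-107 took 5.36% of the pair in shELOVL5 and 5.45% in shLuc. When only 1 count in each library was required, 1 member was at least 2-fold lower and 1 at least 1.5-fold lower (both hsa-miR-33a-3p), and 1 was at least 1.5-fold higher (hsa-miR-33a-5p). Among the other lipid regulators that setting gave 1 higher by each rule (hsa-miR-206) and 1 lower by each rule (hsa-miR-1-3p). hsa-miR-206 had 155 counts in shELOVL5 and 69 in shLuc (ratio 2.29, 1.71 to 3.08), and hsa-miR-1-3p 14 and 80 (0.178, 0.0932 to 0.317). Over all 1024 microRNAs at that setting, 11.7% were 2-fold or more higher and 7.52% lower. At 1.5-fold the shares were 19.9% and 16.1%. A mean of at least 10 CPM gave the same 1 higher and 0 lower by either rule. Of all 313 at that limit, 5 were higher and 0 lower at 2-fold, and 17 and 4 at 1.5-fold. With 5 CPM added, the log2 ratio of hsa-miR-33a-3p was -0.37 against -1.09 and that of hsa-miR-33a-5p 0.11 against 0.83, both within their counting intervals. Depth limits the members below the expression limit, and all comparisons lack replicates.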

Other observations

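MIR33A and MIR378I lie near each other on chromosome 22, on opposite strands with 22209 bases between them. MIR378I spans 41923222 to 41923297, where GENCODE release 29 has an exon of TNFRSF13C on the same strand. Their products differed in level by orders of magnitude. hsa-miR-378i had 2435 counts in shELOVL5 and 2049 in shLuc, whereas both miR-33a arms together had 19 and 30 (ratio 0.645, 0.343 to 1.18). hsa-miR-378i differs from hsa-miR-378a-3p by U9A alone over its 21 bases, and the sharing of reads between them was not tested.

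With 2 libraries, likeness between microRNAs can be given only as distance in log2 CPM over both, which mainly reflects abundance. Nearest to hsa-miR-103a-3p was hsa-miR-423-3p (distance 0.15, ratio 1.09), followed by hsa-miR-30c-5p and hsa-miR-27a-3p. Nearest to hsa-miR-378a-3p was hsa-miR-26b-5p (0.076, ratio 1.24), followed by hsa-miR-4521 and hsa-miR-941. hsa-miR-107 had hsa-miR-423-5p (0.20, ratio 0.951), hsa-miR-503-5p and hsa-miR-425-5p, and hsa-miR-185-5p had hsa-miR-140-5p (0.11, ratio 1.02), hsa-miR-361-5p and hsa-miR-151a-5p.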
